A study of Homo sapiens with 9 samples.

Results

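The laminin chains examined here were the genes listed as LAMA1, LAMA2, LAMA3, LAMA4, LAMA5, LAMB1, LAMB2, LAMB3 and LAMC1. They were picked by gene symbol from a table of RNA counts, and 7 of the 9 had a row there, of 21003 genes in all. LAMA1 and LAMB3 were not analysed here. Each of the 7 passed the filter on low counts, which kept 17777 genes.

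The counts came from HAP1, a near-haploid human line derived from the chronic myeloid leukaemia line KBM-7. Cells in which MATR3 was knocked out (KO) were compared with wild-type (WT) cells, and none carried a further allele or received an agent. MATR3 encodes matrin 3, a nuclear protein that binds RNA and DNA. There were 9 libraries of rRNA-depleted total RNA: 3 of WT clone 1, 2 of WT clone 7, 2 of KO clone 1 and 2 of KO clone 5. All clones were bought, and the WT clones are described as different batches of the control line. WT thus rests on 2 batches of that line, called clones here, and KO on 2 clones. Genotype and clone are only partly separable, and a difference between the WT clones may be one between batches. Whether the libraries of a clone stem from separate cultures is not labelled, so a p-value here reflects only the scatter of these libraries, and that scatter may be technical.

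Laminins are large, often cross-shaped glycoproteins of basement membranes, each built from 1 alpha, 1 beta and 1 gamma chain that join inside the cell before secretion. The alpha chain carries the globular domains that bind integrins and dystroglycan. In laminins whose chains all have full short arms, these arms link neighbouring laminins into a sheet. Which chains a cell makes decides which trimers it can secrete, and LAMC1, the gamma 1 chain, is shared by most of them.

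Total counts per library ran from 16.1 to 34.4 in units of 1e6. MATR3 itself was at 211 to 224 counts per 1e6 counts (CPM) in the WT libraries and at 40.8 to 49.3 CPM in the KO libraries, in the direction of the labels. WT clone 1 replicate 1 was distant from the remaining WT libraries along the second principal component (13.8% of the variance), and repeat families took 14.0% of its counts against 7.90 to 11.2% in the other 8. Of 12 haematopoietic markers only TAL1 had values, so the leukaemic origin could not be checked on the others. Summed CPM of the 6 epithelial markers with values was 44.9 to 73.7 in WT and 119 to 136 in KO libraries. KRT8 led this sum, with up to 70.4 CPM, and 3 of the 6 had a mean below 1 CPM. For the 3 fibroblast markers with values the sum was 71.6 to 95.6 in WT and 56.8 to 82.7 in KO libraries. PDGFRA led it, with up to 73.6 CPM, and 1 of the 3 had a mean below 1 CPM. No endothelial marker had a value. The part of these marker differences in the laminin results was not tested.

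The 300 bases around the RefSeq start (250 before and 50 after it, GRCh38.p14) are shown for the 5 chains whose RNA differed between the genotypes, since these windows are where factors that set their transcription could bind. LAMB1 is at chr7:108003112-108003411 on the minus strand, LAMC1 at chr1:183023170-183023469 on the plus strand, LAMA2 at chr6:128882888-128883187 on the plus strand, LAMA3 at chr18:23872770-23873069 on the plus strand and LAMA4 at chr6:112254518-112254817 on the minus strand. Capitals mark matches, on either strand, to the GC box GGGCGG or to the AP-1 site TGANTCA. The start shown for LAMA3 lies inside the gene, far downstream of its first annotated base.
LAMB1: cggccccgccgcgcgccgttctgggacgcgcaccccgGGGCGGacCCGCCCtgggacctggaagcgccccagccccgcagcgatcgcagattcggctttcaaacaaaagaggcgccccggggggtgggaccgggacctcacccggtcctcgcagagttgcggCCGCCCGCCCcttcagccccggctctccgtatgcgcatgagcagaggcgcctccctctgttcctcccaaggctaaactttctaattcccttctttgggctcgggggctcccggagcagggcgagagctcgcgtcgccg
LAMC1: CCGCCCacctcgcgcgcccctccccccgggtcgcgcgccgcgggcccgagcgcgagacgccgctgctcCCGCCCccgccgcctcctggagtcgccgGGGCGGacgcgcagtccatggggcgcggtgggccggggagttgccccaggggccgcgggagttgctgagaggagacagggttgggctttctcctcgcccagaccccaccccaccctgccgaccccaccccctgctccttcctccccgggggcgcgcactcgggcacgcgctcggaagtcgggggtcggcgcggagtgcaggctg
LAMA2: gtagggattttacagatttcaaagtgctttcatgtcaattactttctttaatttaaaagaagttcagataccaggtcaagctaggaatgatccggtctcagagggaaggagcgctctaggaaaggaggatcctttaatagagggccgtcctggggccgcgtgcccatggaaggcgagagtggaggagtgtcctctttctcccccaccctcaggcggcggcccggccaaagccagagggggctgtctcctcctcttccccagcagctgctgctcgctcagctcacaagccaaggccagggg
LAMA3: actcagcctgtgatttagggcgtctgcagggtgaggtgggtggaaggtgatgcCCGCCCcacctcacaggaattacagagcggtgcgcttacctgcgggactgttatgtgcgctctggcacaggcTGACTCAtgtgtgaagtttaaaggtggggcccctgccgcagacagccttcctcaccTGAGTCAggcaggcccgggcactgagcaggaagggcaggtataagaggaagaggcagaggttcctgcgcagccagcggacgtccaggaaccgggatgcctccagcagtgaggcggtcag
LAMA4: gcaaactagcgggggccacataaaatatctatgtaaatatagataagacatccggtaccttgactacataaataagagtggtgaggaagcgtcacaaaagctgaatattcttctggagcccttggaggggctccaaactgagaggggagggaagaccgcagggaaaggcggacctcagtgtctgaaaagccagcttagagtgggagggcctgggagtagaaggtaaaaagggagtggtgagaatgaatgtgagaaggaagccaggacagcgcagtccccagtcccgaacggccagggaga

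The LAMB1 window held 4 GC boxes, the last 2 of which overlap, and the LAMC1 window held 3. The LAMA3 window held 1 GC box and 2 AP-1 sites, and the LAMA2 and LAMA4 windows held neither motif. Of the chains not shown, LAMA5 had 5 GC boxes and LAMB2 had 1. A GC box was present in 44.6% of 27305 RefSeq promoter windows of this length and an AP-1 site in 7.76%. Searches for the TATA box TATAAA, the CCAAT box CCAAT and the E-box CACGTG found no match in any of the 7 windows, against 12.0%, 35.7% and 7.43% of all windows. Median GC content over all windows was 58.3%. Above it were LAMB1 (71.0%), LAMC1 (79.0%), LAMA3 (61.7%), LAMA5 (82.7%) and LAMB2 (58.7%). Below it were LAMA2 (55.3%) and LAMA4 (51.3%). A match to letters is a description and does not show that a factor binds.

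In KO cells 4 laminin chains fell (LAMB1, LAMA2, LAMA3 and LAMC1), LAMA4 rose, and LAMA5 and LAMB2 did not pass the test. The largest falls were 9.40-fold for LAMA2 and 7.38-fold for LAMB1. The call was an adjusted p below 0.05 in the edgeR quasi-likelihood F test, adjusted over all genes and repeat families. Of all genes tested, 23.2% passed this threshold, 11.3% higher and 11.9% lower in KO. Only 6.1% of genes passed with a change of at least 2-fold, which LAMB1, LAMA2, LAMA3 and LAMA4 did. The median log2 difference (KO minus WT) was -0.81 over the 7 chains and 0.00 over all genes. In bulk RNA, fewer cells making a chain and less RNA per cell cannot be told apart.

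**Figure D1:**
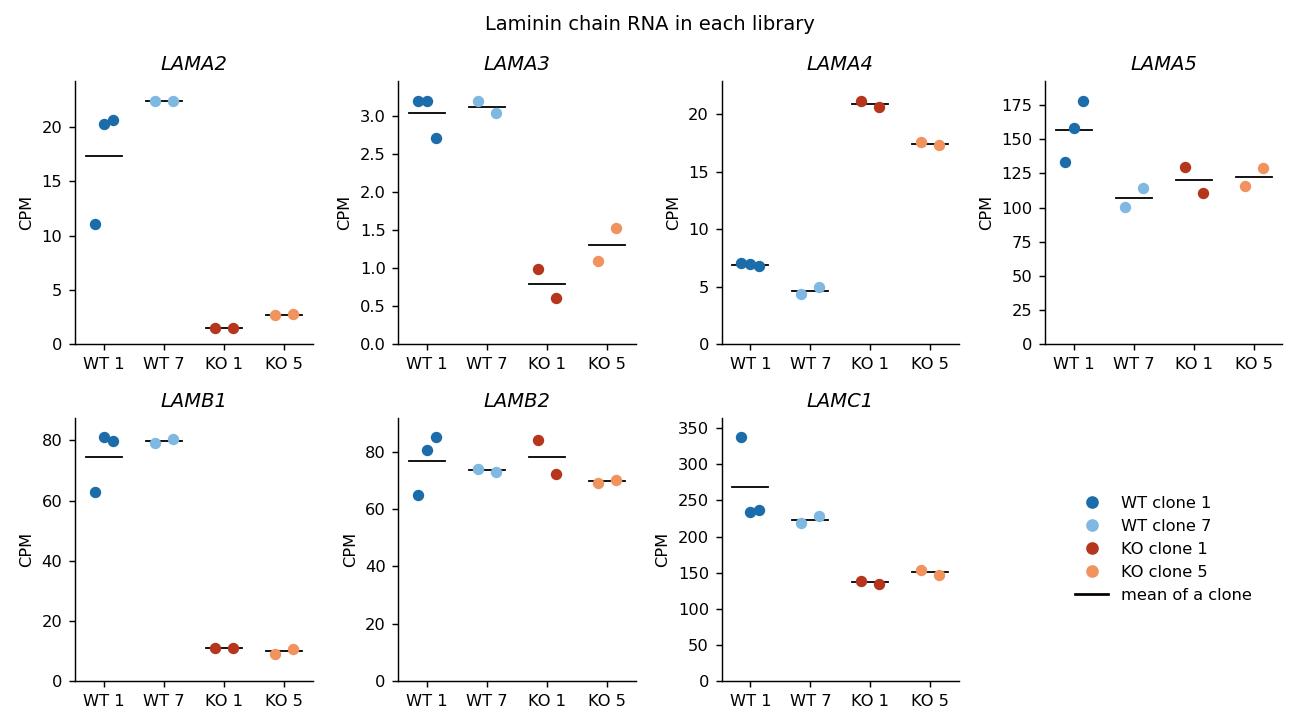
TMM-scaled CPM (vertical axes, linear, from 0) of the 7 laminin chains in each of the 9 libraries, grouped by clone along the horizontal axes; each point is 1 library and each line the mean of a clone. KO libraries lie below all WT libraries for LAMA2, LAMA3, LAMB1 and LAMC1, above all of them for LAMA4 (17.3 to 21.2 against 4.33 to 7.03 CPM), and among them for LAMA5 and LAMB2.

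LAMB1 encodes the beta 1 chain, which pairs with the gamma 1 chain in the most widespread laminins (chr7:107923799-108003213, GENCODE release 44). Its level was 62.9, 81.1 and 79.8 CPM in the WT clone 1 libraries and 79.1 and 80.4 CPM in those of WT clone 7. In the KO libraries it was 11.0 and 10.9 CPM for clone 1 and 9.01 and 10.6 CPM for clone 5. Every KO library was far below every WT library, and both KO clones sat at about the same level. The means were 76.6 ± 7.7 CPM (SD, n = 5) in WT and 10.4 ± 0.93 CPM (n = 4) in KO, a log2 difference of -2.88 (SE 0.10, edgeR adjusted p = 5.1e-09). Ordered by p, LAMB1 was number 5 of all 18829 genes and repeat families tested.

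LAMB2 encodes the beta 2 chain, the alternative beta chain, known from the neuromuscular junction and the kidney glomerulus (chr3:49121114-49133118). It was at 65.0, 80.4 and 85.0 CPM in WT clone 1, 74.1 and 73.0 CPM in WT clone 7, 84.1 and 72.4 CPM in KO clone 1 and 69.1 and 70.2 CPM in KO clone 5. The genotypes overlapped throughout (log2 difference -0.03, SE 0.08, edgeR adjusted p = 0.83).

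LAMC1 encodes the gamma 1 chain (chr1:183023420-183145592). The WT clone 1 libraries held 338, 233 and 237 CPM and the WT clone 7 libraries 218 and 228 CPM. The KO libraries held 139 and 135 CPM for clone 1 and 154 and 147 CPM for clone 5. All KO values were below all WT values, and the WT library at 338 CPM was the 1 that stood apart. The log2 difference was -0.81 (SE 0.12, edgeR adjusted p = 0.00041), and -0.68 without that library (adjusted p = 6.0e-06). The fall, 1.75-fold, was the smallest of the 4.

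LAMA2 encodes the alpha 2 chain of muscle and peripheral nerve basement membranes (chr6:128883138-129516566). It was at 11.1, 20.3 and 20.7 CPM in WT clone 1 and at 22.4 and 22.5 CPM in WT clone 7. In KO clone 1 it was at 1.45 and 1.50 CPM, and in KO clone 5 at 2.66 and 2.78 CPM. The genotypes were well apart, and within KO the clone 5 libraries were both above the clone 1 libraries. The log2 difference between genotypes was -3.23 (SE 0.26, edgeR adjusted p = 3.0e-06).

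LAMA3 encodes the alpha 3 chain, best known from the laminin that anchors epidermis to dermis (chr18:23689453-23956222). It had 49 to 97 raw counts per WT library and 17 to 28 per KO library, so counting error weighs more here than for chains with more counts. Levels were 3.21, 3.20 and 2.72 CPM in WT clone 1, 3.21 and 3.04 CPM in WT clone 7, 0.987 and 0.606 CPM in KO clone 1 and 1.09 and 1.53 CPM in KO clone 5. The genotypes did not overlap (log2 difference -1.58, SE 0.23, edgeR adjusted p = 0.00040).

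LAMA4 encodes the alpha 4 chain, typical of blood vessels and mesenchymal tissue (chr6:112107931-112254939), and was the only chain that rose. It was at 7.03, 6.93 and 6.77 CPM in WT clone 1 and 4.33 and 4.96 CPM in WT clone 7, and at 21.2 and 20.6 CPM in KO clone 1 and 17.5 and 17.3 CPM in KO clone 5. Libraries of a clone were close to each other, and every KO library exceeded every WT library. The log2 difference was 1.68 (SE 0.15, edgeR adjusted p = 6.6e-06), a 3.20-fold rise.

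LAMA5 encodes the alpha 5 chain, the most widespread alpha chain of adult epithelia (chr20:62307955-62367312). It was at 133, 158 and 178 CPM in WT clone 1, 100.3 and 114 CPM in WT clone 7, 129 and 110.4 CPM in KO clone 1 and 116 and 129 CPM in KO clone 5. The KO values lay within the range of the WT libraries, and the log2 difference of -0.18 (SE 0.14) did not pass (edgeR adjusted p = 0.44). Against WT clone 1 alone, with WT clone 7 left out, the difference was -0.37 and passed (adjusted p = 0.025). Against WT clone 7 alone, with WT clone 1 left out, the sign turned, to 0.17 (SE 0.09), and did not pass (adjusted p = 0.21).

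KO and WT libraries did not overlap for the 5 called chains, compared with 23.4% of all genes. Log2 differences in the authors' deposited table were -3.23 for LAMA2, -1.60 for LAMA3, 1.68 for LAMA4, -0.18 for LAMA5, -2.89 for LAMB1, -0.04 for LAMB2 and -0.81 for LAMC1. Genes on the opposite strand overlap LAMB1 (DLD) and LAMA5 (ADRM1), and how strand was treated in counting is not given in the sources used here. DLD had means of 76.6 CPM (WT) and 71.5 CPM (KO) (log2 difference -0.10, edgeR adjusted p = 0.45), and ADRM1 at 133 and 123 CPM (-0.10, adjusted p = 0.49), and neither passed the test.

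Each KO clone was next set against both WT clones in a fit with a group for each clone. These comparisons share their WT libraries. In KO clone 1, LAMA2 (-3.74), LAMB1 (-2.82), LAMA3 (-2.01) and LAMC1 (-0.84) fell and LAMA4 (1.89) rose, where 20.1% of all genes were called. In KO clone 5, LAMB1 (-2.98), LAMA2 (-2.87), LAMA3 (-1.24) and LAMC1 (-0.71) fell and LAMA4 (1.63) rose, where 19.4% of all genes were called. The clone 5 call was lost for LAMA3 without KO clone 5 replicate 1 (-1.01, edgeR adjusted p = 0.073), and for LAMC1 without KO clone 5 replicate 2 (-0.67, adjusted p = 0.061).

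**Figure D2:**
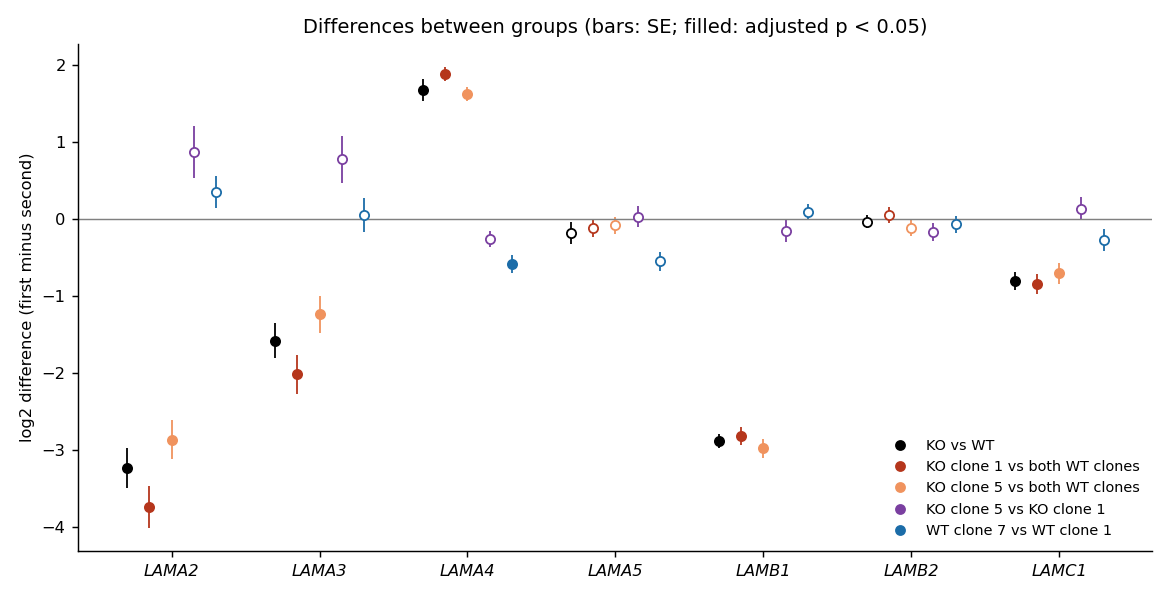
Log2 difference of each laminin chain (vertical axis) in the 5 comparisons of genotypes and clones, with bars of 1 SE; filled points passed an edgeR adjusted p of 0.05. LAMB1 lies near -2.9 in all 3 comparisons of KO with WT, while LAMA2 and LAMA3 lie lower in KO clone 1 (-3.74 and -2.01) than in KO clone 5 (-2.87 and -1.24).

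A direct comparison of KO clone 5 with KO clone 1 called 0 of the 7 chains by edgeR, and 0 by DESeq2, where 0.692% of all genes were called by edgeR. At an unadjusted p below 0.05 there were 3: LAMA2 (0.87, SE 0.34, adjusted p = 0.46), LAMA3 (0.78, SE 0.31, adjusted p = 0.46) and LAMA4 (-0.26, SE 0.10, adjusted p = 0.47). The values for LAMA2 rest on few counts, 25 and 52 in KO clone 1 and 56 and 51 in KO clone 5. Without WT clone 1 replicate 1, the same LAMA2 difference of 0.87 had an SE of 0.15 and passed (edgeR adjusted p = 0.011). LAMB1 differed by -0.16 (SE 0.14) between the KO clones.

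Between the WT clones LAMA4 was lower in clone 7 (-0.58, SE 0.11, edgeR adjusted p = 0.0497), where 0.613% of all genes were called. That call lay at the threshold and was lost in 10 of 13 other settings, with adjusted p from 0.020 to 0.32. LAMA5 was at -0.55 in clone 7 (SE 0.13, adjusted p = 0.065), and passed with the replicate number as a block (-0.44, adjusted p = 0.040), by DESeq2 (-0.54, adjusted p = 0.00087) and without WT clone 1 replicate 1 (-0.66, adjusted p = 0.0074). For both chains the WT clone 1 libraries were above the WT clone 7 libraries without overlap.

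Levels of different chains were compared as CPM per kilobase of annotated exons, counting every exon of a gene once. In WT cells the order was LAMC1 (29.7 ± 5.8), LAMB2 (11.0 ± 1.1), LAMA5 (9.57 ± 2.2), LAMB1 (4.12 ± 0.41), LAMA2 (0.734 ± 0.18), LAMA4 (0.501 ± 0.11) and LAMA3 (0.212 ± 0.015), each with SD and n = 5. By this length LAMB2 and LAMA5 overlapped across libraries, as did LAMA2 and LAMA4. In KO cells the order was LAMC1 (17.0 ± 1.0), LAMB2 (10.8 ± 1.0), LAMA5 (8.48 ± 0.66), LAMA4 (1.60 ± 0.17), LAMB1 (0.559 ± 0.050), LAMA2 (0.0794 ± 0.027) and LAMA3 (0.0727 ± 0.026), each with n = 4. Only the last 2 overlapped there. LAMA4 thus lay below LAMB1 in WT cells and above it in KO cells.

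The length used matters for LAMB1, whose annotated exons add up to 18.6 kb against 6.74 kb in its longest transcript, and for LAMA2, with 26.4 and 9.96 kb. By the longest transcript LAMB1 was at 11.4 ± 1.1 CPM per kb in WT, close to LAMA5 (12.0 ± 2.8) and LAMB2 (13.3 ± 1.3), with its libraries (9.34 to 12.0) overlapping those of both, and at 1.54 ± 0.14 in KO. LAMA2 was at 1.95 ± 0.48 CPM per kb in WT by that length (1.11 to 2.26), above LAMA4 (0.599 to 0.973) without overlap, and in KO its libraries (0.146 to 0.279) no longer overlapped those of LAMA3 (0.0569 to 0.143). LAMA4 was still above LAMB1 in KO cells by that length, at 2.65 ± 0.28 CPM per kb.

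**Figure D3:**
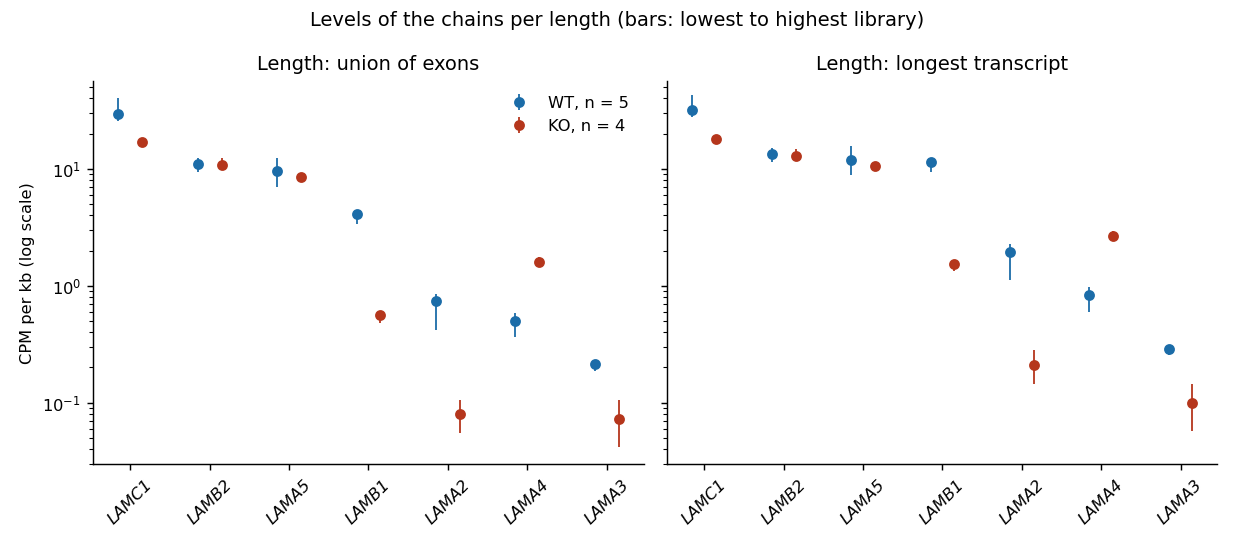
CPM of each laminin chain per kilobase of all exons (left) or of the longest transcript (right), on a log scale (vertical axis); points are the means of 5 WT and 4 KO libraries and bars run from the lowest to the highest library. By all exons LAMC1 is highest in both genotypes (29.7 and 17.0 CPM per kb), and LAMB1 drops from 4.12 to 0.559 while LAMA4 goes from 0.501 to 1.60.

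LAMB1 made up 27.3 ± 1.3% of the RNA of the beta chains with values (LAMB1 and LAMB2, per kb) in WT and 4.94 ± 0.39% in KO libraries. By the longest transcript these shares were 46.2% and 10.6%, so the beta chain RNA was mainly LAMB2 in KO cells by either length. Among the 4 alpha chains, LAMA5 held 86.5 ± 2.6% in WT and 82.8 ± 1.5% in KO, with library ranges of 83.1 to 89.0% and 80.9 to 84.5% that overlap. Behind it, LAMA4 held 4.57 ± 0.60% in WT and 15.7 ± 1.9% in KO, while LAMA2 held 6.94 ± 2.5% and 0.778 ± 0.27%. By the longest transcript LAMA2 held 13.4% in WT and 1.56% in KO, and LAMA4 5.54% and 19.6%. The second alpha chain by RNA was therefore LAMA2 in the WT mean and LAMA4 in every KO library. Summed over each class, the alpha chains were at 11.0 ± 2.3 CPM per kb in WT and 10.2 ± 0.68 in KO, the beta chains at 15.1 ± 1.5 and 11.3 ± 1.0, and LAMC1, the gamma chain with a row among the members, at 29.7 ± 5.8 and 17.0 ± 1.0. These sums are descriptions of RNA and carry no test.

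The genes beside each chain on its chromosome were looked at as well, a check chosen after values had been seen, with the 10 nearest tested genes on each side. Over all genes tested, 11.3% were called higher and 11.9% lower in KO. Around LAMA4, on the long arm of chromosome 6, 15 of 20 neighbours rose in KO cells and their median log2 difference was 1.02, next to 1.68 for LAMA4. LAMA2 lies on the same arm, and 9 of its 20 neighbours rose and 3 fell. Their median was 0.58, and all 20 lay above LAMA2 itself. Against both WT clones, the median of these neighbours was 0.22 in KO clone 1 (10 higher, 6 lower). In KO clone 5 it was 0.75 (12 higher, 2 lower). In KO clone 5 against KO clone 1, 3 of the 20 were called higher and 0 lower (median 0.18), where 0.692% of all genes were called. The part of this in the LAMA2 difference between the KO clones was not tested. Around LAMC1, on the long arm of chromosome 1, 9 of 20 neighbours fell and the median was -0.28, next to -0.81 for LAMC1. The part of these regional shifts in the LAMA4, LAMA2 and LAMC1 differences was not tested.

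The other regions moved less. Around LAMB1 5 of 20 neighbours fell and the median was -0.11; only LRRN3 (-4.30) lay below LAMB1. Around LAMA3 the median was -0.09, with 5 lower and 1 higher. The shares over all genes were 11.9% lower and 11.3% higher. Around LAMA5 it was 0.21 and around LAMB2 0.04, the flattest of the 7 regions.

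**Figure D4:**
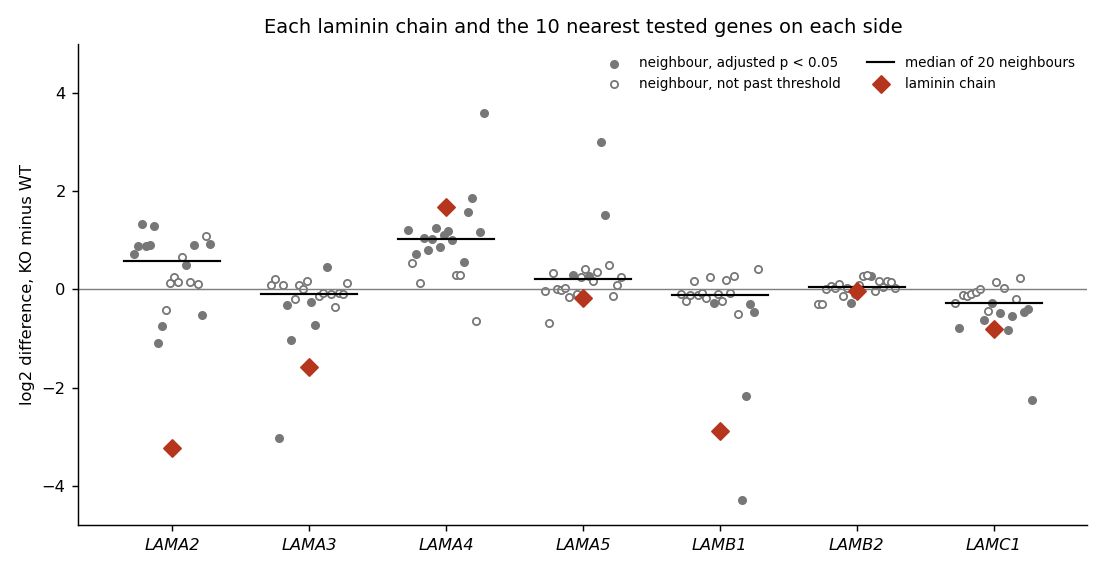
Log2 difference between KO and WT (vertical axis) for each laminin chain (diamond) and its 20 nearest tested genes in chromosomal order (circles; filled where the edgeR adjusted p was below 0.05), with their median as a line. The 20 genes around LAMA4 centre on 1.02 with LAMA4 at 1.68, whereas LAMB1 at -2.88 and LAMA2 at -3.23 lie far below medians of -0.11 and 0.58.

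For each called chain the genes with the most similar profile over the 9 libraries were found among 13498 genes with a mean of at least 1 CPM, by Pearson r of log2(CPM + 0.5). Because the libraries split by genotype, with 55.5% of the variance on the first principal component, any gene that differs strongly between genotypes scores high, and r is given here as a description. For LAMB1 they were KCND3, FBXO17 and ENOX1 (r = 0.998 each), and for LAMA2 AFF2 (0.996), TENM3 (0.995) and the netrin gene NTN1 (0.993). For LAMA3 they were CRIM1 (0.988), GALNT18 (0.987) and KIT (0.983). LAMA4 was most like FUT1 (0.992), SYNJ2 (0.992) and FCHO1 (0.990), and LAMC1 was most like RAB29 (0.990), TMEM108 (0.989) and CPS1 (0.989).

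Genes whose products meet laminins were taken from lists, and their calls are counted against the same background of 23.2%. Of 14 laminin receptor genes tested, 2 rose and 3 fell, with a median log2 difference of -0.07. SDC2, the cell-surface proteoglycan syndecan 2, fell from 74.9 ± 17 to 27.5 ± 7.2 CPM (log2 difference -1.44, SE 0.19, edgeR adjusted p = 0.00020). The integrin genes moved less: ITGB4, the partner of the alpha 6 subunit in hemidesmosomes, rose by 0.74, ITGA3 rose by 0.44, ITGA6 was at -0.25 and ITGA1 at -0.80, both falls past the threshold. The calls for ITGB4, ITGA6 and ITGA1 were each lost when KO clone 1 was left out. The ITGA3 call lay near the threshold (edgeR adjusted p = 0.047), its KO and WT libraries overlapped, and it was not followed over other settings. ITGB1, the beta subunit shared by most laminin-binding integrins, had 146 ± 10.2 CPM (WT) and 143 ± 12 CPM (KO) (-0.03, adjusted p = 0.79), and DAG1, which encodes dystroglycan, at 132 ± 12 and 125 ± 8.6 CPM (-0.08, adjusted p = 0.49).

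Other basement membrane components had 11 falls and 2 rises among 16 genes tested, with a median of -0.37. FRAS1, a protein of the embryonic skin basement membrane, fell by 2.38 and NPNT, an integrin ligand, fell by 2.13 on the log2 scale. NID2, which encodes a nidogen, the linker between laminin and collagen IV, rose by 1.16 (22.4 ± 2.6 to 50.1 ± 3.9 CPM), whereas its relative NID1 was at -0.27, also past the threshold. PXDN, whose enzyme crosslinks collagen IV, had 133 counts over the WT libraries and 3 over the KO libraries, which is 34.5-fold lower per library size with a 95% counting interval of 11.6 to 169. SPARC (-1.83), COL4A6 (-1.11), the perlecan gene HSPG2 (-0.75) and COL4A5 (-0.44) also fell, and COL18A1 (0.82) rose.

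The netrins and their relatives share the laminin short-arm domain. Of 5 tested, NTN1 fell by 3.70 (3.55 ± 0.68 to 0.282 ± 0.22 CPM, edgeR adjusted p = 2.3e-05) and NTN4, whose product binds the gamma 1 chain, rose by 1.63 (3.38 ± 0.69 to 10.6 ± 3.8 CPM, adjusted p = 0.00032). NTN3 was at 0.77 and NTNG2 at 0.19, neither past the threshold, and the median was 0.19.

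Laminins bind dystroglycan through a sugar chain built by a set of enzymes. Of 17 such genes tested, 4 fell and 0 rose by edgeR, also 0 at an unadjusted p below 0.05 and 0 by DESeq2, and the median was -0.01. ISPD, which makes the sugar donor for this chain, had 215 counts over the WT libraries and 1 over the KO libraries, 167-fold lower with a 95% counting interval of 29.7 to 6639. DPM1 (-0.31) and POMK (-0.20) fell by less, and both calls were lost in several other settings.

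Within the cell dystroglycan joins the dystrophin complex. Of 10 genes tested, 4 fell and 1 rose, with a median of -0.11. DTNA, the alpha dystrobrevin gene, went from 4.70 ± 1.9 to 0.0970 ± 0.13 CPM (log2 difference -5.49, edgeR adjusted p = 1.6e-05). SGCD, a sarcoglycan, fell by 1.16 and SNTB1, a syntrophin, by 1.42, while UTRN, the relative of dystrophin found outside muscle, rose by 0.82 (180 ± 9.8 to 317 ± 46 CPM).

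Linkers between integrins, hemidesmosomes and the cytoskeleton gave 0 calls among 11 genes by edgeR and 0 by DESeq2, with 1 at an unadjusted p below 0.05 and a median of -0.02. The 4 with the smallest p were FERMT2 (-0.20), PXN (0.11), ILK (-0.14) and PTK2 (0.07). Among 6 proteases known to cut laminin chains or their precursors or to belong to those families, 1 fell and 0 rose by edgeR, with 0 rises at an unadjusted p below 0.05 and 0 by DESeq2, and a median of -0.06. TLL1, a relative of BMP1, had 83 counts over the WT libraries and 0 over the KO libraries, at least 21.5-fold lower against a floor of 3 counts over the KO group. BMP1 (-0.19), MMP14 (-0.49) and PLAT (0.57) did not pass.

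Chaperones and transport factors of secreted matrix proteins had 4 falls and 1 rise among 12 genes, with a median of -0.12. PDIA3 (-0.27), MIA3 (-0.34), HSPA5 (-0.24) and P4HB (-0.21) fell and SEC23A (0.33) rose, all by small amounts. The first 3 and SEC23A lost their calls when the libraries of each clone were summed. The P4HB call lay near the threshold (edgeR adjusted p = 0.049) and was not followed over other settings.

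**Figure D5:**
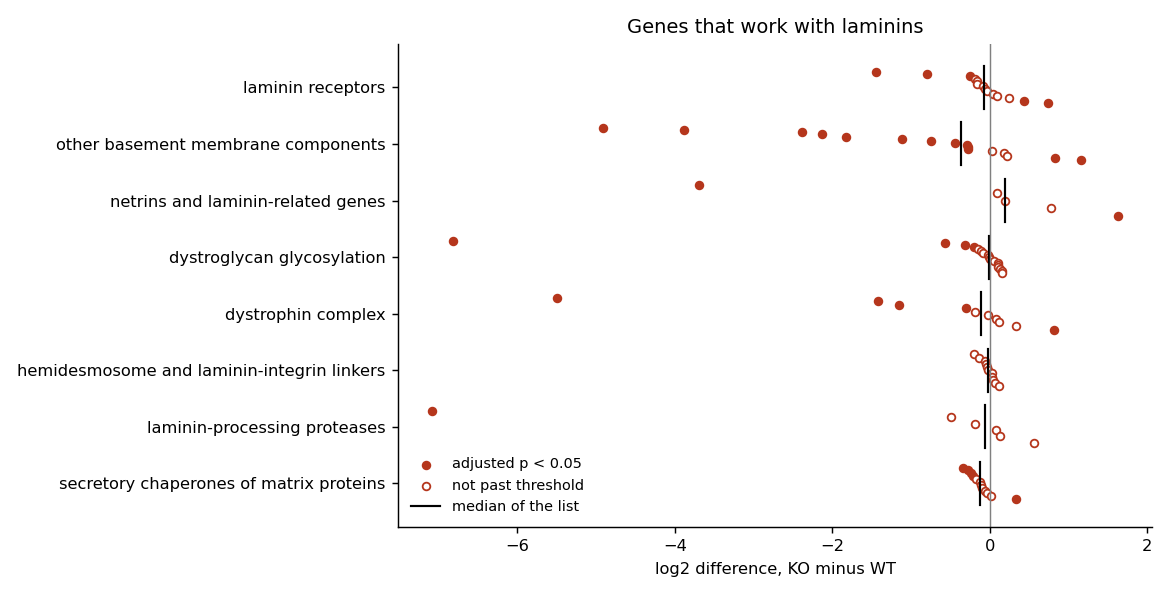
Log2 difference, KO minus WT (horizontal axis), of each tested gene in 8 lists of laminin partners (rows); filled points passed an edgeR adjusted p of 0.05 and lines mark list medians. Other basement membrane components have the lowest median (-0.37); the fitted values of genes with 0 to 3 KO counts (TLL1, ISPD and PXDN) depend on the prior count of the fit and are no measure of size.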

How the data were processed

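RNA was measured by rRNA-depleted directional RNA-seq with paired reads, per the labels' protocols. STAR 2.5.2a, the build hg38, DESeq and DESeq2 1.22.2 are named in the submitters' processing notes. Strand setting, annotation release and any use of UMIs were not given in the sources used here. A deposited table has unnormalized counts for genes and repeat families (from its file header), with a smallest row total of 37. They also hold a normalized signal that the authors made by dividing counts by a size factor per library, the authors' log2 fold changes of KO over WT, and the authors' adjusted p-values.

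Raw counts of 21003 genes and 1111 repeat families were filtered (edgeR filterByExpr by genotype, minimum count 10), scaled by TMM and tested with edgeR 4.0.16 (quasi-likelihood F test) in R 4.3.3, once with a genotype term and once with 4 clone groups. Benjamini-Hochberg adjustment ran over 18829 features, and a call needed a value below 0.05. CPM are TMM-scaled counts per 1e6, and values after ± are SD. SE was derived as the absolute edgeR log2 difference divided by the square root of its F statistic. Library totals of 16.1 to 34.4 (in 1e6 counts) limit precision mainly for LAMA3 and for LAMA2 in KO. Intervals cover counting error only. Positions and lengths came from GENCODE release 44, promoter sequences from RefSeq (GRCh38.p14), which held all 7 chains.

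Alternatives were DESeq2 1.42.0, RLE scaling, other filters, genes alone, robust dispersion, leaving out each library or clone, summed clones, a random clone effect (limma 3.58.1), a 4-group contrast, a replicate block and other lengths. Same-numbered libraries deviated together (r = 0.101 to 0.507 in 12 comparisons, which mirror each other in clones of 2 libraries), so the numbers may pair libraries. The main fits held no term for such pairs, and their p-values and SE ignore them. The replicate block was run only as an alternative. The script was tested on simulated data. Named genes were the members, MATR3, up to 4 genes with the smallest p per list, with further calls counted, and 3 genes most like each called chain. Other genes (ITGA3, ITGB1, DAG1, NID1, SPARC, COL4A6, HSPG2, COL4A5, COL18A1, P4HB, LRRN3, DLD, ADRM1, LAMC3) were named after their values were seen, and 1 gene that the rule names is not reported here. The members and lists were chosen with earlier results of these data known.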

Additional observations from a re-analysis of the deposited data

Results flagged for a closer look

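WT clone 1 replicate 1 lay far from the other 4 WT libraries for 3 chains: LAMA2 was at 11.1 CPM against 20.3 to 22.5, LAMB1 at 62.9 CPM against 79.1 to 81.1, and LAMC1 at 338 CPM against 218 to 237. Across 14 groups checked, chance alone puts about 1 in 20 past this limit. The library was low for LAMA2 and LAMB1 and high for LAMC1, and it also had the largest repeat share. Without it, the log2 differences between KO and WT were -3.38 for LAMA2, -2.95 for LAMB1 and -0.68 for LAMC1, all past the edgeR threshold. The part of the repeat share in these values was not tested.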

How the results depend on the processing

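In 23 other settings of KO against WT, the edgeR, DESeq2 and limma fits kept the direction and the call of LAMA2 (-3.71 to -2.84), LAMA3 (-1.99 to -1.23, highest adjusted p 0.026), LAMA4 (1.47 to 2.05), LAMB1 (-2.97 to -2.80) and LAMC1 (-0.91 to -0.64, highest adjusted p 0.017). LAMB2 (-0.12 to 0.05) passed in none of them, with adjusted p from 0.50 up. LAMA5 ran from -0.37 to 0.17: it passed only without WT clone 7 (-0.37) and its sign turned without WT clone 1 (0.17); the cause was not tested. The number of genes called between KO and WT was 4123, and it was 2338 without KO clone 1, 2614 without KO clone 5 and 1639 with the libraries of each clone summed, which leaves fewer libraries. Leaving out 1 library gave 1597 to 4527 genes for KO clone 1 against WT (3567 with all) and 1648 to 4661 for KO clone 5 against WT (3444); in both, the 2 lowest counts came without a library of the KO clone compared. A clone left with 1 library was assumed to vary like the others. For KO clone 5 against KO clone 1 (123 genes) the range was 18 to 424, highest without WT clone 1 replicate 1, at 79 without WT clone 7 replicate 2 and at 18 to 38 without any single KO library. For WT clone 7 against WT clone 1 (109 genes, 468 by DESeq2) it was 0 to 764: 764 without WT clone 1 replicate 1, 3 without WT clone 1 replicate 3, and 0 by edgeR without either WT clone 7 library or any single KO library, where 1686 to 2957 genes had an unadjusted p below 0.05. With the replicate block 3734 genes were called between KO and WT and 431 between the WT clones; of the chains it changed the call only of LAMA5 between the WT clones. By the longest transcript LAMB1 made up 46.2% of beta chain RNA in WT and 10.6% in KO, and LAMA5 79.1% and 78.1% of alpha chain RNA. Among partner genes, POMK lost its call in 11 of 23 settings, HSPA5 in 9, DPM1 in 7, MIA3 in 4, ITGB4, ITGA6, ITGA1 and SEC23A in 3 each and PDIA3 in 1, while FERMT2 gained it in 2. Some settings removed low rows: TLL1 could be tested in 17 settings. With 2 batches of WT and 2 clones of KO, differences between clones limit what can be assigned to MATR3 loss. LAMA3 counts limit precision.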

Other observations

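LAMC3 encodes a further gamma chain and was outside the listed members. It was at 16.2, 7.89 and 9.04 CPM in WT clone 1, 4.66 and 5.27 CPM in WT clone 7, 7.14 and 6.49 CPM in KO clone 1 and 7.73 and 8.56 CPM in KO clone 5. KO values lay within the range of the WT libraries, and the genotypes did not pass the test (log2 difference -0.19, SE 0.30, edgeR adjusted p = 0.71). That WT range spans 2 clones whose libraries did not overlap. LAMC3 was at -1.14 in WT clone 7 against WT clone 1 (SE 0.27, edgeR adjusted p = 0.075, not past the threshold). Every KO library lay above both WT clone 7 libraries. Per kilobase of exons it was at 0.963 ± 0.51 CPM in WT (n = 5) and 0.837 ± 0.098 in KO (n = 4), far below LAMC1, so gamma chain RNA was mainly LAMC1 in both genotypes.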
